A study of Mus musculus with 16 samples.

Results

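Binding of the transcription factors Foxn3, Foxn4 and Rfx3 was examined at 10 genes that build the centriole and its appendages: Pcm1, C2cd3, Sclt1, Fbf1, Ofd1, Odf2, Plk4, Sass6, Stil and Cenpj. The genes were chosen for their known roles there and with earlier results of these data known, out of 21887 RefSeq genes that encode proteins, so counts above a background are a description of the set. A peak was assigned to a gene where its midpoint lay in the gene body or within 10 kb of either end, and peaks within 1 kb of an end were marked. The peaks came from CUT&RUN, in which an antibody on unfixed cells directs micrococcal nuclease to the DNA beside the bound protein. Each assay used about 300000 cells from pooled retinas of CD-1 mice, an outbred stock, at embryonic day 16. There were 4 anti-Foxn3 libraries from 2 experiments, 2 anti-Foxn4 and 2 anti-Rfx3 libraries, and a further 8 libraries used control immunoglobulin G (IgG): rabbit IgG in 4 matched to Foxn3 and in 2 matched to Rfx3, and mouse IgG in 2 matched to Foxn4. Digestion took 1 h, or about 12 h for the Foxn4 and mouse IgG libraries, so antibody, control species and digestion time cannot be told apart in any comparison with Foxn4. All libraries came from whole retina with no genetic change or treatment named in the labels.

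The deposited data are 1 peak list per antibody, with 2794 peaks for Foxn3, 2956 for Foxn4 and 3981 for Rfx3. Replicates are not separated in them, read depth is unknown from them, and the IgG libraries were not analysed here. Error between replicates can therefore be given for none of the values, and no test was run. The score of a peak is the authors' own, with a scaling that is not stated, and is used only for rank within a list. Which retinal cells carried a peak cannot be read from pooled tissue.

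The primary cilium grows from a centriole, a barrel of microtubules, after that centriole has docked at the membrane. A new centriole is started by the kinase Plk4, which acts through Stil and the cartwheel protein Sass6, and its microtubule wall grows under the control of Cenpj. The older, mother centriole carries distal appendages, which attach it to the membrane, and subdistal appendages, which anchor microtubules. Rfx3 is a winged-helix factor known for activating cilium genes through the X-box, a DNA motif made of a pair of inverted arms. Foxn3 and Foxn4 are forkhead factors, and Foxn4 is known in the retina for its part in making amacrine and horizontal cells.

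Peaks lay at 7 of the 10 genes and, wherever a start of transcription was annotated, beside that start. Pcm1, C2cd3, Sclt1, Stil and Cenpj had a peak in every list, Odf2 had Foxn3 and Rfx3 peaks, and Fbf1 had a Foxn3 peak alone. Plk4, Sass6 and Ofd1 had no peak in any list. By the 10 kb rule 7 genes had a Foxn3 peak, 5 a Foxn4 peak and 6 an Rfx3 peak. Over all protein-coding genes the same rule was met by 15.2% for Foxn3, 10.5% for Foxn4, 19.0% for Rfx3, 5.90% for all 3 lists together and 23.9% for at least 1 list. Within 1 kb of an end, 6 genes had a Foxn3 peak, where 8.82% of all genes did. The counts were 4 for Foxn4 against a background of 4.84%, and 5 for Rfx3 against 10.6%. All 3 lists met within 1 kb of an end of 4 genes, Pcm1, C2cd3, Sclt1 and Stil, a pattern found at 3.06% of all genes. The gene that drops out at 1 kb is Cenpj, for the reason of annotation given with its values below.

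**Figure D1:**
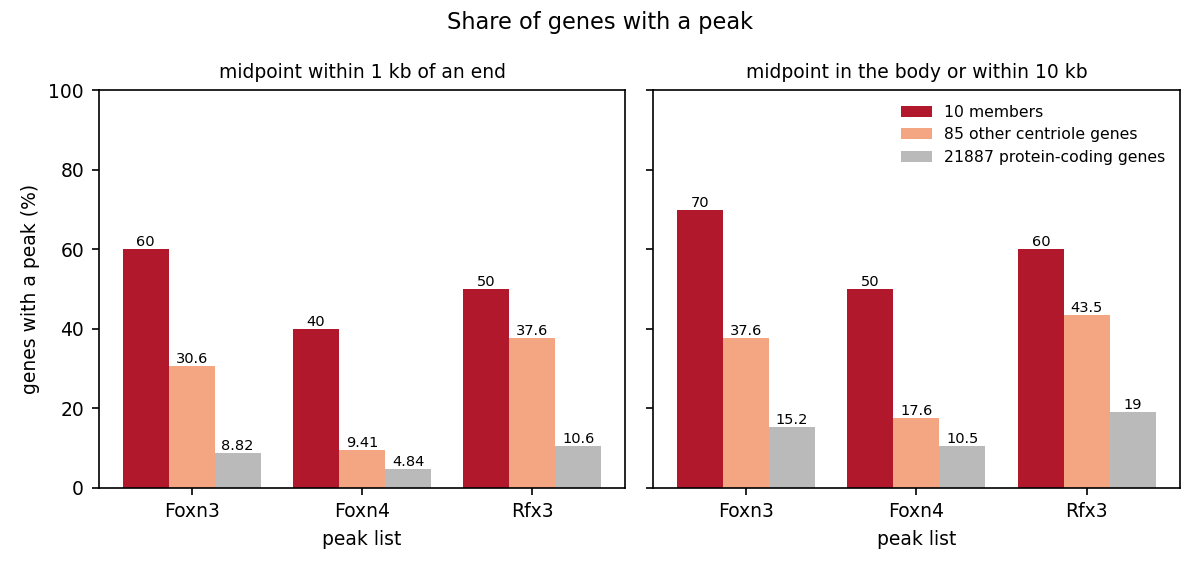
Percent of genes with a peak in each list (vertical axis), for the 10 centriole and appendage genes, 85 other centriole genes and all 21887 protein-coding genes; left, peaks within 1 kb of an end, right, peaks in the body or within 10 kb. The bars of the 10 genes, from 40% to 70%, stand above the bars of all genes, from 4.84% to 19.0%, in each list.

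The DNA just before the start of transcription is printed for genes that differ in their binding. It is the stretch that the peaks cover at the genes with peaks. Sequences are those of RefSeq for GRCm38.p6, the assembly behind mm10, read 5′ to 3′ along the gene and ending at the base before the start. They are 150 bases long unless the start of a neighbouring gene comes first. Capitals mark GACGC, a motif known for the Foxn family, and GTTGCT, a form of the X-box arm, on either strand. The first 4 come from genes bound in all 3 lists.
C2cd3, chr7:100372083-100372232, plus strand: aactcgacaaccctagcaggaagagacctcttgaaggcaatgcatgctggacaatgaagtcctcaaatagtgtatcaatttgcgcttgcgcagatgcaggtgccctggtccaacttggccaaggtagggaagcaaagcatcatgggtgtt
Sclt1, chr3:41742515-41742614, minus strand: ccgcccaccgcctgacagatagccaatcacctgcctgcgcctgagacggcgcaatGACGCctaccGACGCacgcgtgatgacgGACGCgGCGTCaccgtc
Stil, chr4:114999968-115000117, plus strand: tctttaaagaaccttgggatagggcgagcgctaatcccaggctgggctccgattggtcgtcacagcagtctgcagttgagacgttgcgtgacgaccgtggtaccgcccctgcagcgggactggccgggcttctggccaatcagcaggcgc
Cenpj, chr14:56571847-56571996, minus strand: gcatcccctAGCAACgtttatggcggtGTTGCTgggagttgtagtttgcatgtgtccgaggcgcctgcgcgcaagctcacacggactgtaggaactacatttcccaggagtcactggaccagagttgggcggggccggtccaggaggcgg
The next 2 come from genes with Foxn3 and Rfx3 peaks, or with a Foxn3 peak alone.
Odf2, chr2:29889570-29889719, plus strand: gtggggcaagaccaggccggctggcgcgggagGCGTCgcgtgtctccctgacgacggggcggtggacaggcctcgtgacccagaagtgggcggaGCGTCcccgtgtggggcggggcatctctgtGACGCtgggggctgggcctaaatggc
Fbf1, chr11:116168179-116168328, minus strand: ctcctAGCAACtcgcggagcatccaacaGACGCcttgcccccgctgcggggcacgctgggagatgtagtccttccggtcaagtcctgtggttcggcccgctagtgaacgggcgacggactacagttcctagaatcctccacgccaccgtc
The last 2 come from genes without a peak. Ofd1, which also had no peak, is not printed. Its 50 bases between its start and that of Trappc2 hold neither GACGC nor GTTGCT.
Plk4, chr3:40799801-40799950, plus strand: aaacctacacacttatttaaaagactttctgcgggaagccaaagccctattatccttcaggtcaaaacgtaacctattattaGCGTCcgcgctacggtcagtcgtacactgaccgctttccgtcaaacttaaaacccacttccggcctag
Sass6, chr3:116594888-116594957, plus strand: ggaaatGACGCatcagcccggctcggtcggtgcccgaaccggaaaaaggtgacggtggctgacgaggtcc
Every printed base of C2cd3, Sclt1, Stil and Cenpj lay inside the peaks of all 3 lists, every base of Odf2 inside Foxn3 and Rfx3 peaks, and every base of Fbf1 inside its Foxn3 peak.

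Among the appendage genes, Sclt1 had peaks in every list. Sclt1 encodes a distal appendage protein needed for docking of the mother centriole. The gene lies on chromosome 3 (chr3:41626705-41742551) and is read from its upper end. The Foxn3 peak (chr3:41742216-41742844) had a score of 76.6, higher than 81.0% of its list. The Foxn4 peak (chr3:41742257-41742620) had a score of 9.78, higher than 75.5% of its list. The Rfx3 peak (chr3:41742230-41742691) had a score of 56, higher than 35.8% of its list. Sclt1 thus ranked in the upper part of both forkhead lists and below the middle of the Rfx3 list. The 3 peaks shared 364 bases, the whole of the Foxn4 peak, and covered the start. The end of D3Ertd751e lies 55 bp from that of Sclt1, and all 3 peaks also lie within 1 kb of it, so the gene to which they belong is uncertain.

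Fbf1, which encodes another distal appendage protein, had a single peak. It was a Foxn3 peak of 223 bp (chr11:116168178-116168400) with a score of 26.2, higher than 41.6% of its list. The peak ran from 222 bp before the start of Fbf1 to the start itself. No other annotated gene had an end within 1 kb of its midpoint. The nearest Rfx3 peak lay 55.3 kb from the gene and the nearest Foxn4 peak 55.2 kb, both at Wbp2. Binding by Foxn3 alone within 1 kb of an end was found at 212 genes, 0.969% of all.

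Odf2 encodes cenexin, a protein of the mother centriole needed for its appendages, and was the only gene of the set with more than 1 peak in a list. RefSeq gives it 4 starts within 343 bp. The first Foxn3 peak (chr2:29889287-29889787) had a score of 36.4, higher than 57.6% of its list. The first Rfx3 peak (chr2:29889288-29889923) had a score of 63, higher than 41.6% of its list. This pair shared 500 bases over the first start. The second Foxn3 peak (chr2:29890331-29890586) had a score of 31.8, higher than 51.5% of its list. The second Rfx3 peak (chr2:29890311-29890578) had a score of 107, higher than 62.7% of its list. The second pair lay past all 4 starts, with midpoints 396 bp (Foxn3) and 382 bp (Rfx3) beyond the last, and its midpoints were 14 bp apart. The Rfx3 score was therefore higher at the second site and the Foxn3 score at the first. No other gene had an end within 1 kb of these peaks, and the nearest Foxn4 peak lay 33.7 kb from the gene, at Sptan1.

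C2cd3 encodes a protein of the distal centriole needed for its elongation and for recruiting the distal appendages. At C2cd3 (chr7:100372229-100470159) the Foxn3 peak (chr7:100371875-100372454) had a score of 66.3, higher than 77.7% of its list. The Foxn4 peak (chr7:100371937-100372393) had a score of 13.3, higher than 91.5% of its list. The Rfx3 peak (chr7:100371705-100372461) had a score of 150, higher than 72.5% of its list. C2cd3 was thus in the upper part of every list and held the highest-ranked Foxn4 peak of the set. The Foxn3 and Foxn4 midpoints lay 68.5 and 68 bp before the start, and the Rfx3 midpoint 150 bp before it. All 3 peaks also lay within 1 kb of Ppme1, whose end is 333 bp from that of C2cd3. Ppme1 starts 337 bp from the start of C2cd3, on the other strand, and the Foxn3 and Rfx3 peaks covered both starts. The gene to which the 3 peaks belong is therefore uncertain.

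Pcm1, the scaffold of the centriolar satellites that carry proteins to the cilium base, had the lowest Foxn4 rank of the set. The Foxn3 peak (chr8:41239373-41239718) had a score of 21.5, higher than 31.0% of its list. The Foxn4 peak (chr8:41239514-41239813) had a score of 4.44, higher than 5.18% of its list. The Rfx3 peak (chr8:41239392-41240027) had a score of 62, higher than 40.9% of its list. All 3 were below the middle of their lists. They met at the lower end of the gene (chr8:41239484-41334088) and shared 205 bases, the shortest common stretch at the genes bound in every list. No other annotated gene had an end within 1 kb.

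The genes of centriole duplication divided, with peaks in every list at Stil and Cenpj and in none at Plk4 and Sass6. Stil, the partner through which Plk4 brings Sass6 to the new centriole, lies at chr4:115000108-115043203. Its Foxn3 peak (chr4:114999802-115000174) had a score of 14, higher than 10.8% of its list. Its Foxn4 peak (chr4:114999828-115000127) had a score of 8.89, higher than 67.6% of its list. Its Rfx3 peak (chr4:114999810-115000311) had a score of 81, higher than 52.8% of its list. The order of the lists was thus the reverse of that at Sclt1 for Foxn3 and Rfx3: the weakest Foxn3 rank of the set lay beside an Rfx3 rank just above the middle. The 3 peaks shared 300 bases, and no other gene had an end within 1 kb of them.

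Cenpj, which encodes a tubulin-binding protein that controls growth of the centriole wall, had the highest Foxn3 and Rfx3 ranks of the set. The Foxn3 peak (chr14:56571783-56572164) had a score of 127, higher than 90.2% of its list. The Foxn4 peak (chr14:56571794-56572095) had a score of 9.78, higher than 75.5% of its list. The Rfx3 peak (chr14:56571579-56572164) had a score of 194, higher than 78.3% of its list. These peaks lay inside the annotated gene (chr14:56526761-56575489), 3516 to 3618 bp from its upper end, and so were not counted within 1 kb of an end. An end of Parp4 lies 130 bp from that upper end, so the 10 kb rule assigns the 3 peaks to Parp4 as well. RefSeq places a start of Cenpj at these peaks, and the midpoints were 128 bp (Foxn3), 98.5 bp (Foxn4) and 25.5 bp (Rfx3) before it. With distances taken from RefSeq starts, known for 9 of the 10 genes, Cenpj joins the genes bound within 1 kb in all 3 lists. By that rule 6 of the 9 genes had a Foxn3 peak, 4 a Foxn4 peak, 5 an Rfx3 peak and 4 all 3, and the shares over all 17492 genes with a start were 9.67%, 5.29%, 11.6% and 3.45%.

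No peak was assigned to Plk4 (chr3:40799951-40816883), Sass6 (chr3:116594938-116630986) or Ofd1 (chrX:166386573-166440704), which encodes a protein of the distal centriole and satellites. The nearest peaks to Plk4 lay 29.8 kb away for Foxn4, at Mfsd8, 54.6 kb for Rfx3, at Hspa4l, and 77.3 kb for Foxn3. Those nearest to Sass6 lay 86.8 kb away for Foxn3 and for Rfx3, both at Rtca, and 100.2 kb away for Foxn4. For Ofd1 the distances were 57.4 kb for Foxn4 and 216 kb for Foxn3 and for Rfx3, both at Gemin8. The 10 kb limit itself decided nothing: of the assigned peaks with a midpoint outside a gene body, the farthest was the Rfx3 peak of C2cd3, 146 bp from the gene, and the nearest unassigned peak was the Foxn4 peak beyond Plk4. The numbers in the Foxn3 list have gaps, 851 in 3645, so an unstated filter may have removed peaks. Around Sass6 the numbers were consecutive (2208 and 2209), so no numbered peak had been removed there. Around Plk4 the numbers ran from 2098 to 2100 with 1 absent, and Ofd1 lies beyond the last numbered peak, so a removed peak cannot be told from no peak at these genes.

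**Figure D2:**
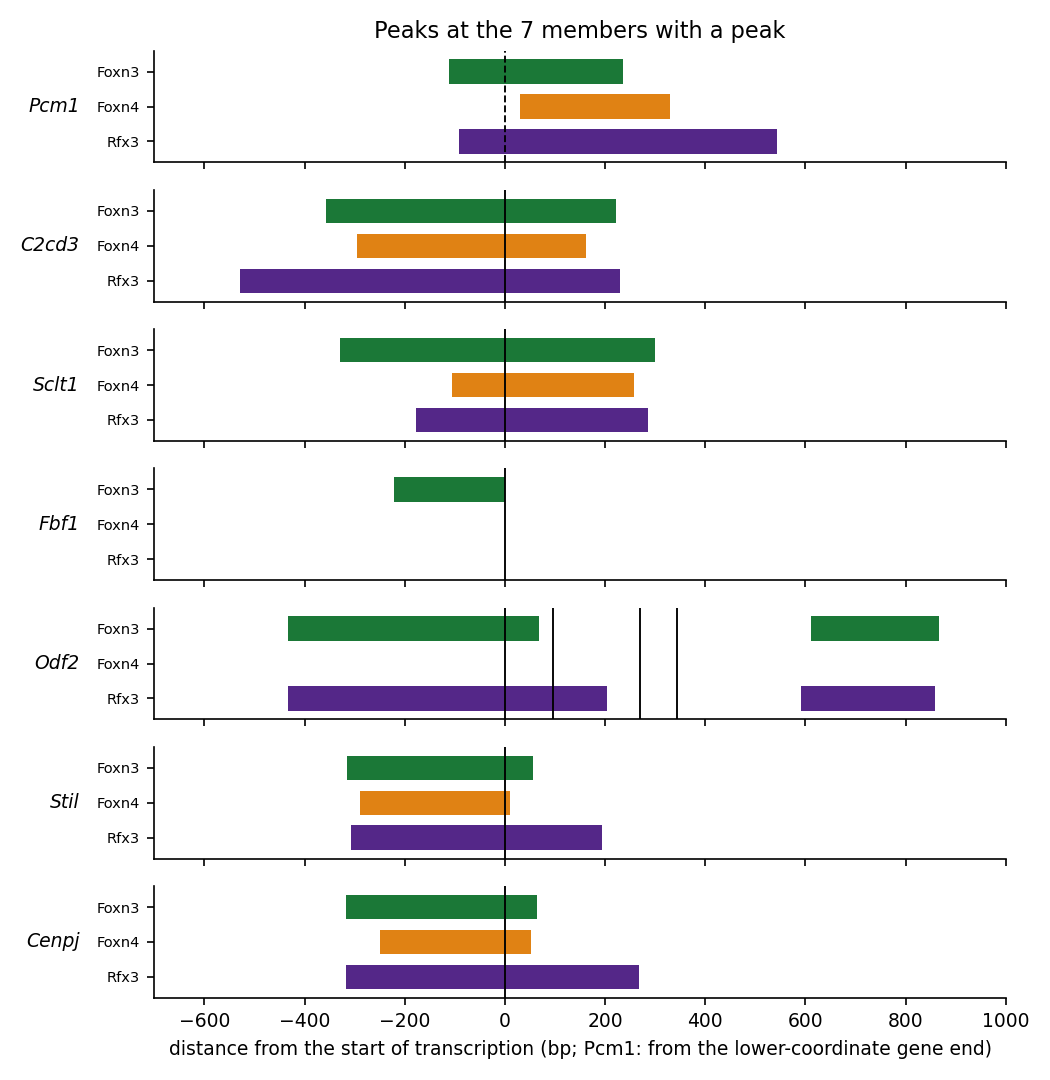
Extent of each peak (bars, colored by list) at the 7 genes with a peak, along the distance in bp from the start of transcription in the direction of the gene; solid lines are RefSeq starts, and the dashed line is the lower end of Pcm1. Peaks of different lists lie over each other at the start, and Odf2 has a second pair of Foxn3 and Rfx3 peaks past its last start.

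The peaks of different lists fell on the same places. The 20 assigned peaks formed 8 separate sites, of which 5 held all 3 lists, 2 held Foxn3 and Rfx3, and 1 held Foxn3 alone. By the 10 kb rule all 5 genes with a Foxn4 peak had the other 2 lists, as did 56.3% of all genes with a Foxn4 peak. The midpoints of the 3 lists lay within 82 bp of each other at C2cd3, 83 bp at Stil, 91.5 bp at Sclt1, 102 bp at Cenpj and 164 bp at Pcm1. At C2cd3, Sclt1, Stil and Cenpj the Foxn4 peak lay wholly inside both other peaks. Foxn3 and Rfx3 peaks overlapped at 6 genes, which is 6 of the 7 with Foxn3 and 6 of the 6 with Rfx3. The share with overlapping peaks was not counted over all genes. Shared sites, midpoint distances and Foxn4 peaks inside others were not measured over the whole lists either. By the 10 kb rule, with no overlap required, 85.7% of the set's genes with a Foxn3 peak also had an Rfx3 peak. This is close to the 86.4% among all genes with a Foxn3 peak. By the same rule 69.2% of all genes with an Rfx3 peak also had a Foxn3 peak, beside 6 of 6 in the set. Of the 17 peaks at genes with an annotated start, 15 covered a start and all 17 had a midpoint within 1 kb of one. The same shares were not counted over all peaks. Within 1 kb of a gene end lay 15 of the 20 assigned peaks. In the whole lists it was 1581 of 2794 Foxn3, 877 of 2956 Foxn4 and 1941 of 3981 Rfx3 peaks. The 2 peaks that covered no start were the second pair at Odf2. No peak was found deeper in any of these gene bodies or near the opposite end.

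The ranks of the peaks were spread over the lists. Foxn3 ranks ran from 10.8% to 90.2% with a median of 54.5% over 8 peaks, beside a median of 52.8% for all 1581 Foxn3 peaks at gene ends. Foxn4 ranks ran from 5.18% to 91.5% with a median of 75.5% over 5 peaks, beside 44.1% for 877 end peaks. Foxn4 peaks often had the same score, and tied peaks were not counted as lower. A rank of 44.1% is therefore that of a peak at the median Foxn4 score, 7.11. Rfx3 ranks ran from 35.8% to 78.3% with a median of 52.8% over 7 peaks, beside 46.4% for 1941 end peaks. With only peaks at or above the median score of their list, Foxn3 remained at C2cd3, Sclt1, Odf2 and Cenpj, and Rfx3 at C2cd3, Odf2, Stil and Cenpj. Foxn4 then remained at C2cd3, Sclt1, Stil and Cenpj. C2cd3 and Cenpj were thus the genes bound in all 3 lists at that score. Among peaks in the highest score quartile Rfx3 was left at Cenpj alone. Shares over all genes were not counted under these score filters.

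**Figure D3:**
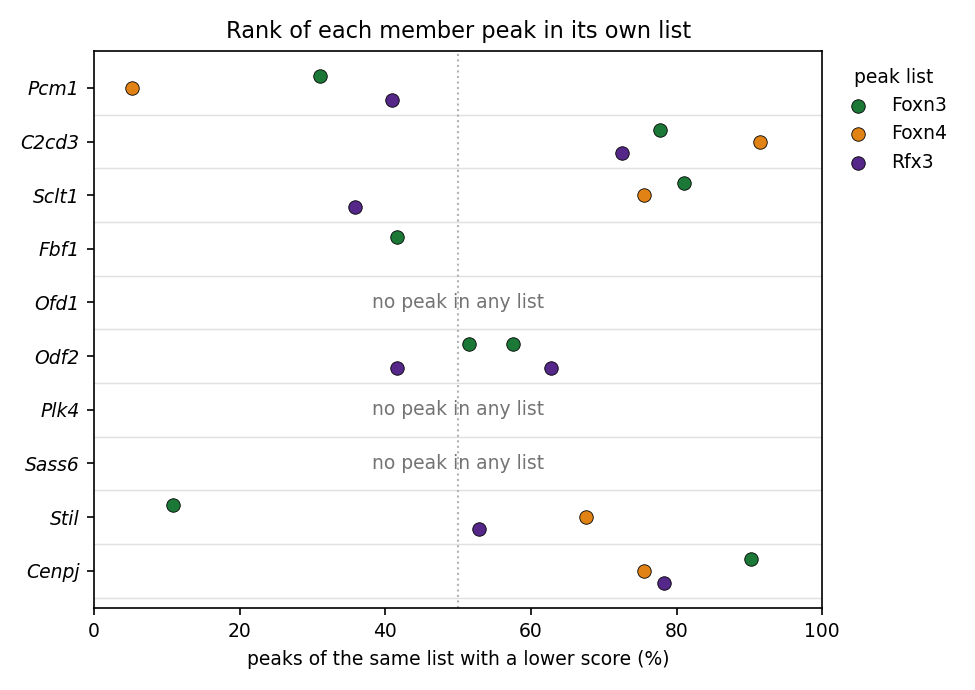
Percent of the peaks in the same list that score lower (horizontal axis) for every peak at the 10 genes, colored by list; the dotted line marks the middle of a list. All points of C2cd3 and Cenpj lie right of the middle and all points of Pcm1 left of it, and Stil and Sclt1 have points on both sides.

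Promoter sequence was compared over windows of 300 bases, from 250 before a start to 50 after it. The table held windows for 9 of the 10 genes, all but Pcm1, with 4 overlapping windows for Odf2, and 21263 windows for 17492 protein-coding genes in all. Each motif was searched on both strands. The X-box, searched as GTTNCC followed after any 2 bases by its inverted repeat, had no match at the 9 genes. It was in 0.428% of all windows, and in 3.16% of those that an Rfx3 peak overlapped. A looser form with the arm GTNNCC, which includes every match of the first, also had none, beside 1.96% of all windows and 11.0% of those with an Rfx3 peak. The single arm GTTGCC, which can be part of either, was absent from the 9 genes and present in 12.6% of all windows and 27.0% of those with an Rfx3 peak. For the X-box, its looser form and the arm, the shares of windows with a Foxn3 peak were 2.68%, 10.3% and 26.5%. Windows with a Foxn4 peak had 0.214%, 4.06% and 15.9%. An absent match says only that these letters are not in this window. The forkhead motif GTAAACA (3.01% of all windows) had no match, and ATAAACA (3.92%) had 1, at Sass6, which had no peak. Both were less frequent in windows with a peak. GTAAACA was in 2.23% of those with Foxn3, 1.39% with Foxn4 and 2.00% with Rfx3. ATAAACA was in 1.83%, 1.93% and 1.90%.

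GACGC was found at 6 of the 9 genes, beside 33.4% of all windows and 36.3% of genes. It was in 57.5% of windows that a Foxn3 peak overlapped, 57.1% of those with a Foxn4 peak and 55.2% of those with an Rfx3 peak. Those windows were also richer in CpG, which GACGC contains. The median was 22 CpG under Foxn3 peaks, 24 under Foxn4 peaks and 22 under Rfx3 peaks, against 13 over all windows. The part of base composition in these shares was not tested. Sclt1 had 4 matches between 45 and 7 bp before its start, all inside the peaks of the 3 lists and printed in capitals above. Odf2 had 4 in the window of its first start, and Fbf1 had 1. Plk4, Sass6 and Ofd1 each had 1, although none of them had a peak, and C2cd3, Stil and Cenpj had none, although each had a peak in every list. At these 9 genes the motif therefore did not separate those with a peak from those without. GTTGCT, an alternative arm chosen after the promoters had been seen, was found at Sclt1, Fbf1 and Cenpj, with 2 matches at Cenpj, beside 14% of all windows and 21.9% of those with an Rfx3 peak. It was in 22.4% of windows with a Foxn3 peak and 16.7% of those with a Foxn4 peak.

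Base composition did not separate the genes either. GC content was 50% at Plk4, 59% at Sass6 and 65.3% at Ofd1, the genes without a peak. Among the genes with peaks it ran from 54% at C2cd3 to 74.3% at the last start of Odf2, beside a median of 56.3% over all windows. The number of CpG dinucleotides was 18, 25 and 26 at Plk4, Sass6 and Ofd1. It was 14 at C2cd3, 21 at Cenpj, 24 at Fbf1, 26 at Stil, 27 at Sclt1 and from 26 to 43 at Odf2. Median GC content was 61.3%, 62.3% and 61.7% in windows under Foxn3, Foxn4 and Rfx3 peaks. An end of another protein-coding gene lay within 1 kb of an end of 5 of the 10 genes, beside 24.8% of all genes. These pairs were C2cd3 with Ppme1, Sclt1 with D3Ertd751e, Ofd1 with Trappc2, Sass6 with Mfsd14a and Cenpj with Parp4. Only the first 2 pairs shared a peak within 1 kb of an end. By the 10 kb rule Cenpj and Parp4 shared peaks as well. By starts of transcription, Trmt13 also begins 71 bp from Sass6, on the other strand, and no list had a peak there.

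Other genes of the centriole were examined in a list of 85, drawn up from their known roles, also with earlier results of these data known. Within 1 kb of an end, 26 had a Foxn3 peak (30.6%), 8 a Foxn4 peak (9.41%) and 32 an Rfx3 peak (37.6%), beside the backgrounds of 8.82%, 4.84% and 10.6% given above. All 8 genes with a Foxn4 peak had the other factors too, as did 63.2% of all genes with a Foxn4 peak at an end. By the 10 kb rule it was 12 of 15, beside 56.3%. These were Cep85, Rbm14, Tedc1, Trim37 and Kif24 of centriole duplication and length control, Cep128 and Cep170 of the subdistal appendages, and Crocc, which encodes the rootlet protein rootletin. Tedc1 had the highest Foxn3 and Rfx3 ranks among them, with scores above 93.1% and 97.3% of their lists. Its Foxn4 score, 7.11, was the median of that list, above 44.1% of its peaks. Crocc had the lowest Foxn4 rank, 0.710%. Peaks of Kif24 are also within 1 kb of Nudt2, those of Cep170 of Sdccag8 and those of Rbm14 of Gm21992.

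By class, Foxn4 peaks within 1 kb of an end were found at 5 of 33 duplication genes, 2 of 11 subdistal appendage genes and 1 of 7 linker and rootlet genes. None was found within 1 kb of an end of the 15 satellite, 12 distal centriole and 7 distal appendage genes. Classes and patterns were counted by ends only. Within 1 kb of a RefSeq start, known for 75 of the 85 genes, 29 had a Foxn3 peak, 10 a Foxn4 peak and 34 an Rfx3 peak. The shares over all genes with a start were 9.67%, 5.29% and 11.6%. Over all genes the share by ends was 4.84%, and counts this small set no class apart. Rfx3 peaks were found in every class, at 13 duplication, 6 satellite, 5 subdistal appendage, 3 distal centriole, 3 linker and 2 distal appendage genes. Odf2 shared its pattern, Foxn3 and Rfx3 without Foxn4, with 17 of the 85 genes (20%, beside 4.50% of all genes), among them Cep89 and Kiz of the distal appendages and Odf2l, a gene related to it by name. The Foxn3-only pattern of Fbf1 was shared by Poc5 alone, and 7 genes (8.24%) had Rfx3 alone, beside 2.52% of all genes. No peak within 1 kb of an end was found at 52 of the 85 genes (61.2%), beside 4 of the 10 genes and 87.2% of all genes. The 4 include Cenpj, which had peaks of all 3 lists at its RefSeq start.

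**Figure D4:**
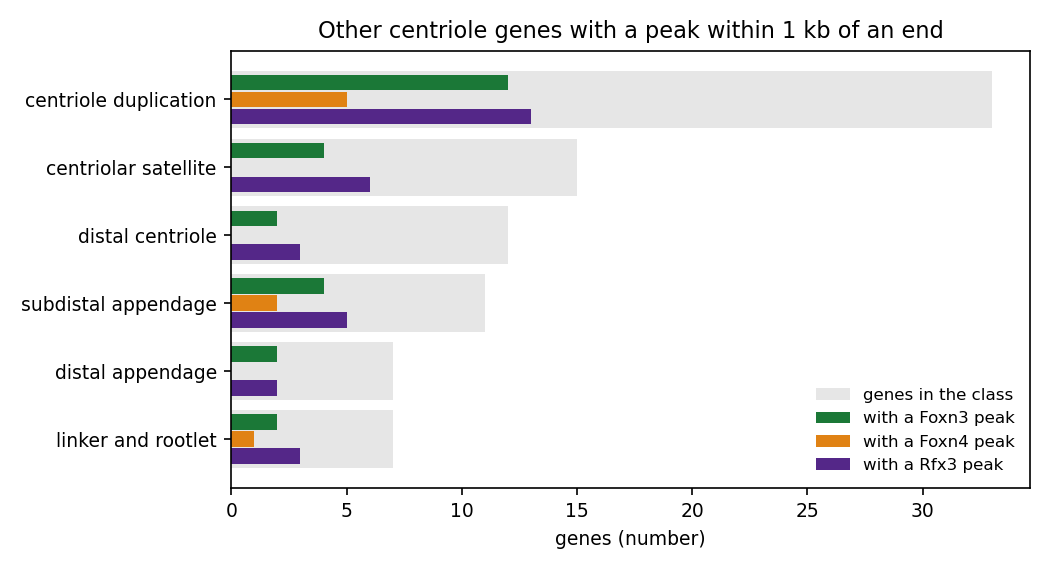
Number of the 85 other centriole genes in each class (grey) and the number with a peak of each list within 1 kb of an end (colored bars). Foxn4 bars are present in 3 of the 6 classes, and the Rfx3 bar is at least as long as the Foxn3 bar in each class.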

How the data were processed

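CUT&RUN peaks of 3 antibodies in mouse retina were analysed from 1 deposited list per antibody. The submitters' processing notes name cutadapt, Bowtie2, UMI-tools, bedtools and SEACR, with no role or order, and the build mm10, which the file headers also give. The fifth column holds the authors' score per peak, whose scaling is not stated. How libraries and IgG controls entered a list, and the depth per sample, are not given in the sources used here. Genes and promoter windows came from RefSeq tables of GRCm38.p6, without exons. BED starts were converted to count from 1. From these files, peaks were assigned by midpoint with Python 3.11.15 and pandas 2.3.3, lists were compared by overlap of at least 1 bp, and backgrounds were counted over all protein-coding genes. Assignment and motif search were tested on simulated data. Alternatives changed the window, the assignment, the score filter, the overlap and 1 motif. The 10 genes and the gene lists were chosen with earlier results of these data known. Named were all 10 genes, those sharing their peaks, and other centriole genes bound in all 3 lists or sharing a pattern.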

Additional observations from a re-analysis of the deposited data

How the results depend on the processing

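Most counts kept within 1.5 times their value: this held for 34 of 43 alternatives, including any overlap in place of the midpoint, windows of 5 and 20 kb, 500 bp and 2 kb from an end, RefSeq starts in place of either end, and overlap of 50% of both peaks. Score filters, under which fewer peaks enter, moved 8, and another motif 1. With peaks at or above the median score, the number of the 10 genes with a Foxn3 peak was 4 within 10 kb and 3 within 1 kb of an end, and with an Rfx3 peak 2 within 1 kb. The other centriole genes with Foxn4 then numbered 4 instead of 8. In the highest score quartile the 10 kb and 1 kb counts were 3 and 2 for Foxn3, and 1 and 0 for Rfx3. The score filters were not applied to the counts over all genes, so these falls have no background beside them. The X-box arm GTTGCT in place of GTTGCC, chosen after seeing the data, was found at 3 of the 9 promoters instead of 0. No paired analysis was possible because each antibody has 1 list that does not separate its replicates; for the same reason no replicate could be left out. Depth is unknown, so a missing peak may be a site below detection.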
